A study of Mus musculus with 12 samples.

Results

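Metallothioneins are small, cysteine-rich proteins of the cytosol that bind zinc and copper and react with oxidants. Their genes are switched on by the metal-responsive transcription factor MTF-1, which senses free zinc through its zinc fingers and binds short metal response elements (MREs) near the start of its target genes. Glucocorticoids, inflammatory cytokines and oxidative stress also raise metallothionein mRNA in many tissues, skeletal muscle included. The genes described here were the ubiquitous metallothioneins *Mt1* and *Mt2* and *Mtf1*, which encodes MTF-1, 3 of the 55367 gene symbols in the expression tables. They were taken by name, with earlier results of these data known.

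RNA-seq was performed on single muscle fibers of the extensor digitorum longus (EDL), a fast hindlimb muscle. Fibers from young mice (3–4 months) formed 1 group, and fibers from aged mice (26–28 months) were loaded with Fluo-4, a fluorescent calcium indicator, and separated under a fluorescence stereomicroscope into those of normal staining (Fluo-4 normal) and those of abnormally high staining (Fluo-4 abnormal). Each group held 4 samples, all from C57BL/6J mice (males in the aged groups) with no treatment or allele named in the labels, with a number of fibers per sample that is not given in the sources used here, and each library was made by SMART-Seq v4 from 10 ng of total RNA. Nothing in the labels says that the samples of a group came from separate mice, and p-values then measure only the spread between these samples. The paper names the Jackson Laboratory as its supplier of C57BL/6J mice and the National Center for Geriatrics and Gerontology as the source of its aged mice. Age and source of the mice therefore cannot be told apart here. Whether the young fibers sequenced were also loaded with Fluo-4 is not stated. In bulk samples, fewer cells of a type and less RNA per cell cannot be told apart.

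The levels were TPM, transcripts per 1000000, a share of all transcripts corrected for gene length, and the number of reads behind them is unknown. Every sample summed to 1000000 TPM and listed between 16841 and 17936 genes above 0. The labelled cell type was checked with 8 myofiber markers, among them *Acta1*, *Ckm* and *Myh4*, whose summed level was 159000 to 215000 TPM in every sample. *Myh4*, the myosin heavy chain of the fastest fibers, made up 93.7% to 99.6% of the myosin heavy chain TPM. Differences are given as log2(TPM + 1) with their standard error (SE) from limma fitted to all 14428 genes tested, and a gene was called at an adjusted p under 0.05.

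*Mt1* and *Mt2* are neighbors on chromosome 8 and run in the same direction. In the mouse genome build GRCm39, *Mt1* (ENSMUSG00000031765.10) spans chr8:94905710-94906955 and *Mt2* (ENSMUSG00000031762.9) spans chr8:94898819-94900207 on the plus strand, 5502 bp apart. The 2 paralogs *Mt3*, the neuronal form, and *Mt4*, the form of stratified epithelia, lie upstream in the same cluster. *Mtf1* (ENSMUSG00000028890.15) is on another chromosome, at chr4:124695897-124743593.

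The MRE cores near the starts of *Mt1* and *Mt2* are shown because they are the sequence that ties both genes to MTF-1. The core TGCACNC or TGCGCNC was searched on both strands from 250 bases before to 50 bases after each RefSeq start. *Mt2* held 4 matches and *Mt1* held 3. Each is printed on the plus strand with 10 bases on either side, the sequence taken from RefSeq (table build GRCm38.p6) and placed on GRCm39 by an exact match, with the core in capitals.
Mt2 chr8:94899013-94899039: gcatcgcctcTGCACCCggcccctcgg
Mt2 chr8:94899108-94899134: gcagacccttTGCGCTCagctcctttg
Mt2 chr8:94899186-94899212: gggggagggcGTGTGCAggctctgtcc
Mt2 chr8:94899240-94899266: aattcgggtcGTGCGCAggcccagggg
Mt1 chr8:94905684-94905710: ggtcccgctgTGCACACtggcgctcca
Mt1 chr8:94905709-94905735: cagggagctcTGCACTCcgcccgaaaa
Mt1 chr8:94905727-94905753: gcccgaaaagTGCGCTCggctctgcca

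The 2 most downstream *Mt2* matches read TGCACAC and TGCGCAC on the minus strand, and the other 5 matches lie on the plus strand. Of 32851 promoter windows of this length, 25.7% held at least 1 match, 1.97% at least 3 and 0.517% at least 4. The starts differ between annotations: GENCODE gives *Mt2* 10 transcripts, 2 of which begin upstream of all 4 matches and 6 of which begin within the stretch shown second, and the 2 most downstream matches overlap a noncoding part of the first exon of 7 transcripts. The first *Mt1* match lies just before the first base of the GENCODE gene, and the other 2 lie in the noncoding start of the first exon of 3 of its 4 transcripts. The window of *Slc30a1*, the zinc exporter of the plasma membrane and a standard MTF-1 target, held 2 matches, those of *Mt3* and *Mt4* held 1 each and that of *Mtf1* itself held 0. A match of these letters is not evidence of binding, and no match says only that they are not in this window.

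*Mt1* was an abundant transcript of these fibers in every group. In the young fibers it was listed at 450, 337, 493 and 302.5 TPM in samples 1 to 4, a mean of 396 ± 90.3 (SD, n = 4), and ranked 237 of 14428 genes. In the Fluo-4 normal fibers it was listed at 554, 603, 442 and 451 TPM (513 ± 79.0) and ranked 191. In the Fluo-4 abnormal fibers it was listed at 622, 706, 408 and 743 TPM (620 ± 150.0) and ranked 159. The order of the means was young, normal, abnormal, but neighboring groups overlapped, and abnormal sample 3 lay below 2 of the young samples.

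*Mt2* was lower than *Mt1* in all 12 samples and separated young from aged samples more clearly. In the young fibers it was listed at 75.3, 55.4, 91.8 and 47.4 TPM (67.5 ± 20.0). In the Fluo-4 normal fibers it was listed at 184, 144, 111 and 123 TPM (141 ± 32.1). In the Fluo-4 abnormal fibers it was listed at 259, 187, 105 and 185 TPM (184 ± 63.0). All 8 samples of aged mice lay above the highest young sample, whereas the 2 aged groups overlapped and the lowest and the highest of the 8 were both Fluo-4 abnormal.

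*Mtf1* was a low-level transcript and showed no such order. It was listed at 4.34, 5.54, 2.87 and 2.16 TPM in the young fibers (3.73 ± 1.51), at 3.85, 3.06, 2.88 and 2.51 TPM in the Fluo-4 normal fibers (3.08 ± 0.565) and at 4.13, 3.86, 3.62 and 3.33 TPM in the Fluo-4 abnormal fibers (3.74 ± 0.344). The young samples spanned the values of all 8 samples of aged mice.

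**Figure D1:**
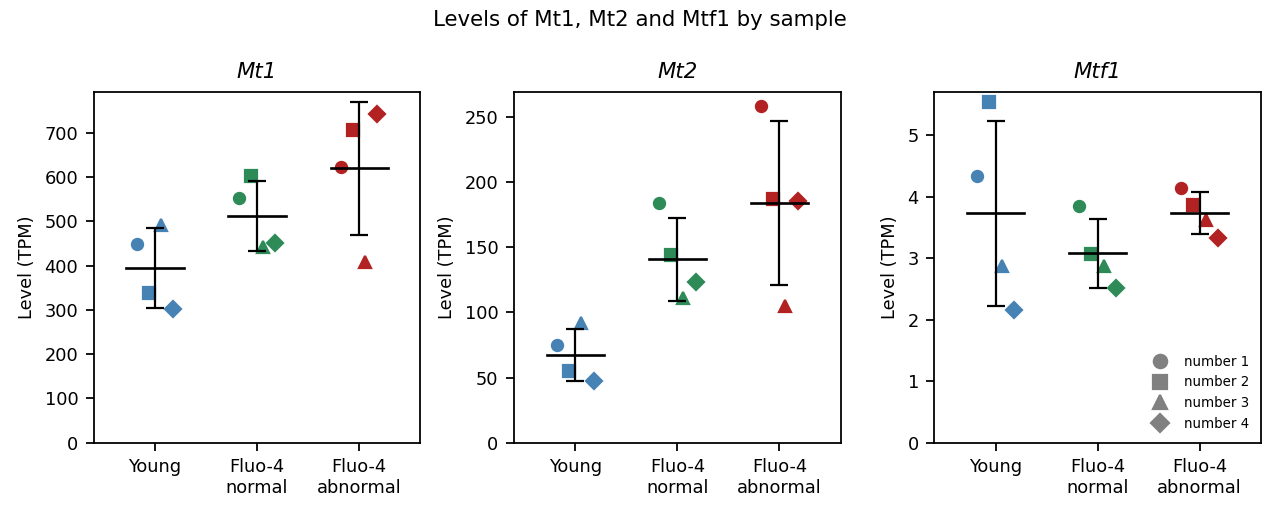
Level of *Mt1*, *Mt2* and *Mtf1* (y axis, TPM) in each of the 4 samples of the young, Fluo-4 normal and Fluo-4 abnormal groups, with symbols for the sample numbers 1 to 4, the mean as a line and the SD as a bar. *Mt2* was between 105 and 259 TPM in the samples of aged mice and at most 91.8 TPM in the young, while *Mtf1* overlapped in all groups.

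The comparison of Fluo-4 abnormal with young fibers asked how far the abnormal fibers had moved from the young state. *Mt2* rose by 1.41 on the log2 scale (SE 0.26, 95% interval 0.85 to 1.96, adjusted p = 0.0054, limma), or 2.66-fold, and its groups did not overlap. In this comparison 8.5% of all genes tested were called and 16.2% did not overlap. *Mt1* was higher by 0.64 (SE 0.19, 95% interval 0.22 to 1.06), which did not pass over all genes (unadjusted p = 0.0056, adjusted p = 0.059). The difference of *Mtf1* was 0.06 (SE 0.21, 95% interval -0.40 to 0.51, adjusted p = 0.91). The *Mt2* call held in all 24 other settings, with differences from 1.22 to 1.65 and adjusted p from 0.00057 to 0.029. *Mt1* passed in 5 of 24, one of them the fit without Fluo-4 abnormal sample 3 (0.83, adjusted p = 0.016).

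The comparison of Fluo-4 normal with young fibers addressed the difference between aged and young mice in fibers without abnormal staining. It shares the young samples with the comparison above, so the values stand side by side and not as separate support. *Mt2* was higher by 1.07 (SE 0.26, 95% interval 0.51 to 1.62) with groups that did not overlap, but missed the threshold over all genes (unadjusted p = 0.0011, adjusted p = 0.067, limma). Here 1.15% of all genes tested were called and 7.98% did not overlap. *Mt2* passed in 6 of 24 other settings, among them a filter of 5 TPM (adjusted p = 0.027) and the fit without Fluo-4 abnormal sample 3 (adjusted p = 0.044). *Mt1* differed by 0.39 (SE 0.19, 95% interval -0.03 to 0.81, adjusted p = 0.43) and *Mtf1* by -0.17 (SE 0.21, 95% interval -0.62 to 0.29, adjusted p = 0.80).

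The comparison of the 2 aged groups asked what set the abnormal fibers apart at the same age. None of the 3 genes passed. *Mt1* differed by 0.25 (SE 0.19, 95% interval -0.17 to 0.67, adjusted p = 0.45), *Mt2* by 0.34 (SE 0.26, 95% interval -0.22 to 0.90, adjusted p = 0.44) and *Mtf1* by 0.22 (SE 0.21, 95% interval -0.23 to 0.68, adjusted p = 0.54), while 9.35% of all genes tested were called and 14.0% did not overlap between these groups. The intervals include 0 and also higher levels in abnormal fibers, up to 0.90 for *Mt2*, so they do not show that the groups were alike. With samples scaled by trimmed-mean factors, which bring the median difference of all genes from 0.102 to 0, *Mt1* differed by 0.02 and *Mt2* by 0.11, and with the *Myh4* share as a covariate *Mt2* differed by 0.10. With 1 sample left out, *Mt1* ranged from 0.15 (without Fluo-4 abnormal sample 4) to 0.44 (without Fluo-4 abnormal sample 3) and *Mt2* from 0.15 (without Fluo-4 abnormal sample 1) to 0.59 (without Fluo-4 abnormal sample 3), and neither passed in any of these fits.

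Same-numbered samples of the 2 aged groups deviated together across genes, and the values within numbers are therefore given. The level of *Mt1* in abnormal over normal fibers was 1.12, 1.17, 0.924 and 1.65 for numbers 1 to 4. The same ratio was 1.41, 1.30, 0.943 and 1.50 for *Mt2* and 1.07, 1.26, 1.26 and 1.32 for *Mtf1*. Both metallothioneins were thus higher in abnormal fibers in 3 of 4 numbers and lower in number 3, and *Mtf1* was higher in 4 of 4. With the replicate block fitted on the aged samples alone, the difference of *Mt2* had an SE of 0.12 and an adjusted p of 0.15 (limma). The main fit did not use the pairs, and its SE was 0.26 (adjusted p = 0.44, limma).

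**Figure D2:**
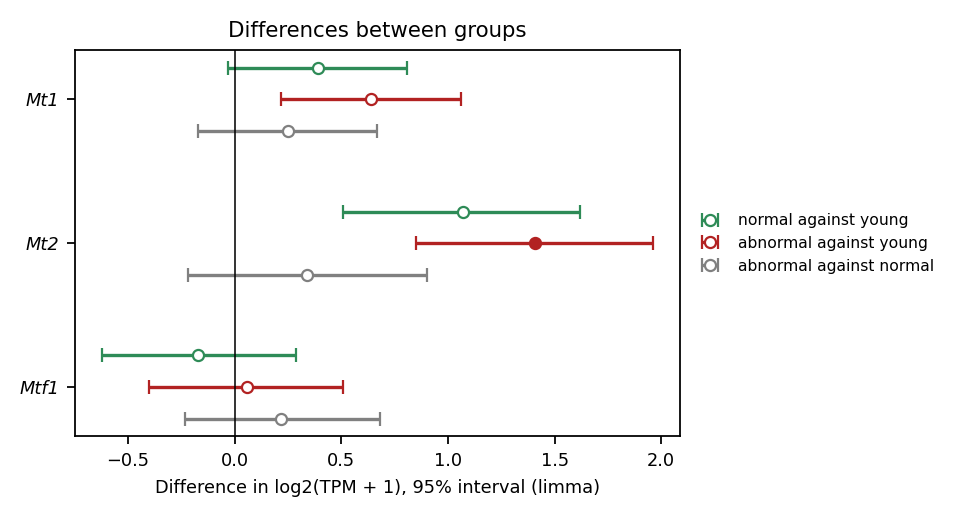
Difference in log2(TPM + 1) between groups (x axis) for *Mt1*, *Mt2* and *Mtf1*, with the 95% interval from limma over 12 samples; a filled point has an adjusted p under 0.05 over all genes tested. The filled point is *Mt2* in abnormal against young fibers, at 1.41, and the 3 intervals of abnormal against normal fibers include 0.

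The balance between the 2 metallothioneins differed between the young and the aged samples. The ratio of *Mt2* to *Mt1* TPM was 0.157 to 0.186 in the young fibers, 0.239 to 0.332 in the Fluo-4 normal fibers and 0.249 to 0.416 in the Fluo-4 abnormal fibers. Every sample of aged mice lay above every young sample. The mean log2 ratio was higher than in young fibers by 0.78 in the abnormal and by 0.69 in the normal fibers, each with p = 0.0286 in a two-sided exact permutation test (0.0429 adjusted over 3 comparisons), the smallest p that 4 against 4 samples can give. Between the aged groups the log2 ratio differed by 0.09 (p = 0.686, adjusted 0.686, exact permutation test). A ratio within a sample does not depend on how samples are scaled, and it shows that *Mt2* and *Mt1* differed unequally, not that either stayed the same.

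Summed, *Mt1* and *Mt2* came to 463 ± 110.0 TPM in young, 653 ± 104.0 TPM in Fluo-4 normal and 804 ± 195.0 TPM in Fluo-4 abnormal fibers (SD, n = 4). The sum was 350.0 to 585 TPM in the young and 513 to 928 TPM in the abnormal fibers, so these groups overlapped.

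**Figure D3:**
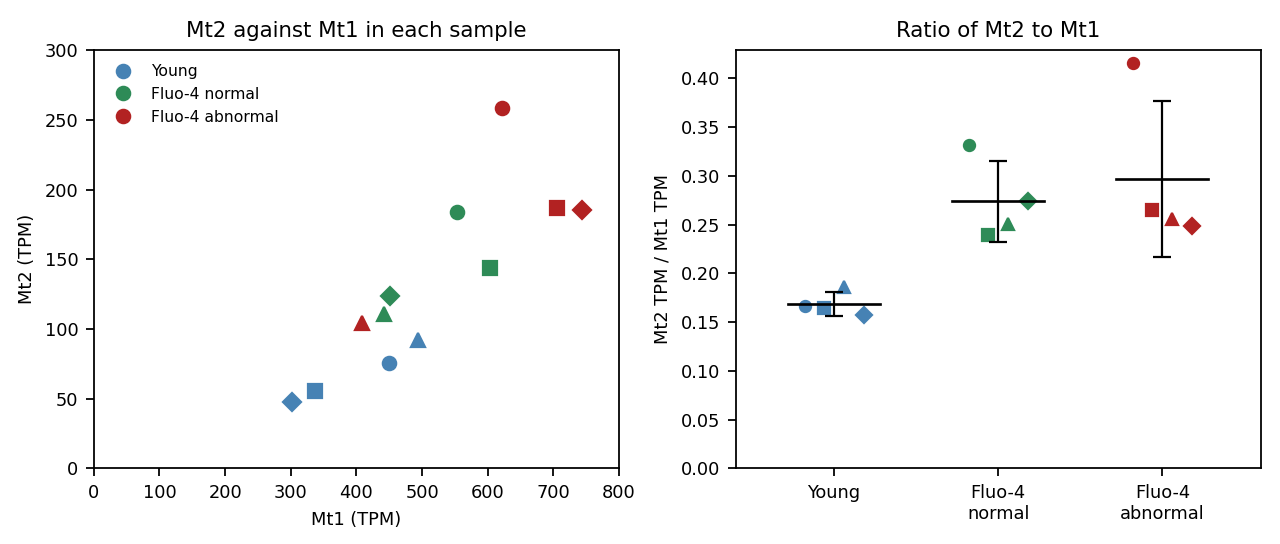
Left, *Mt2* (y axis, TPM) against *Mt1* (x axis, TPM) in each of 12 samples, colored by group with symbols for the sample numbers; right, the ratio of *Mt2* to *Mt1* in each sample with the mean and SD of each group. The young samples had ratios of 0.157 to 0.186, below all samples of aged mice, and abnormal sample 1 stood highest at 0.416.

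Across the 12 samples *Mt1* and *Mt2* varied together. Their log2(TPM + 1) values had a Pearson r of 0.897, and *Mt2* was the gene most like *Mt1* among 5994 genes with a mean of at least 5 TPM. After it came *Cstb* (r = 0.890), which encodes the protease inhibitor cystatin B, *B2m* (0.846), the light chain of class I antigen-presenting molecules, *Dtna* (0.839), a dystrophin-associated protein, and *Slbp* (0.839), which binds histone mRNA. The genes most like *Mt2* were *Srsf7* (0.919), a splicing factor, *Parp2* (0.901), a DNA-damage enzyme, *Mt1*, *Slbp* (0.885) and *Srxn1* (0.884), which repairs oxidized peroxiredoxins. *Mtf1* had an r of 0.128 with *Mt1* and 0.112 with *Mt2*. These correlations describe 12 samples that fall into 3 groups and share library preparation, so a difference between the groups alone gives a high r.

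The paralogs were near or at 0. *Mt4* was listed at 0 in all 12 samples. *Mt3* was listed at 0.232 to 3.11 TPM in young and 0.369 to 2.89 TPM in Fluo-4 normal fibers, and at 1.92, 2.63, 1.38 and 10.7 TPM in Fluo-4 abnormal fibers. Sample 4 was the highest of both aged groups. Within numbers 1 to 4, the level in abnormal over normal fibers was 2.84, 3.11, 3.73 and 3.69, higher in 4 of 4. The difference in log2(TPM + 1) was 1.04 from normal (SE 0.49, adjusted p = 0.21, limma) and 1.09 from young fibers (SE 0.49, adjusted p = 0.20), and neither passed.

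Other genes of zinc and copper handling and of the signals known to act on metallothioneins were read from 9 lists of 96 genes, 88 of which were tested. In abnormal against young fibers 9 of the 88 rose and 0 fell (10.2%, beside 8.5% of all genes). In abnormal against normal fibers 6 rose and 0 fell (6.82%, beside 9.35%), and in normal against young fibers 1 rose and 0 fell (1.14%, beside 1.15%). In this main fit the shares were thus near those of all genes tested. Of all genes called, 1062 were higher and 287 lower in abnormal against normal fibers, a split that turned to 310 and 545 with trimmed-mean factors and to 440 and 775 with the GC and length trend removed. In abnormal against young fibers the split was 879 and 348, and 451 and 692 or 544 and 796 with these changes. The counts of listed genes called moved with the settings, from 3 to 19 for abnormal against young fibers, from 2 to 10 between the aged groups and from 0 to 5 for normal against young fibers. Counts over all genes moved as well. Between the aged groups they were 1349 in the main fit, 855 with trimmed-mean factors and 1959 with the replicate block. In some settings the listed share was not near that of all genes.

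Of 7 MTF-1 targets outside the metallothionein cluster, 0 passed in any comparison, with 3, 0 and 2 at an unadjusted p under 0.05 in abnormal against young, abnormal against normal and normal against young fibers (limma). Of all genes tested, 23.0%, 25.6% and 12.9% reached that p in these comparisons. *Slc30a1* was listed at 0.549 to 0.718 TPM in young, 0.756 to 1.29 TPM in Fluo-4 normal and 0.806 to 1.44 TPM in Fluo-4 abnormal fibers. Neither aged group overlapped the young, with differences of 0.23 (adjusted p = 0.51) and 0.31 (adjusted p = 0.16). Of all genes tested, 7.98% did not overlap in normal against young and 16.2% in abnormal against young fibers. *Slc39a10*, a zinc importer that MTF-1 represses, lay the other way, at 1.43 to 1.72 TPM in young, 0.437 to 1.19 TPM in Fluo-4 normal and 0.761 to 1.34 TPM in Fluo-4 abnormal fibers. Its groups did not overlap the young either, with differences of -0.45 (adjusted p = 0.18) and -0.38 (adjusted p = 0.14). *Gclc*, the catalytic subunit of glutathione synthesis and also an NRF2 target, differed by 0.13 between abnormal and young fibers (adjusted p = 0.78).

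Among 12 zinc importers tested, *Slc39a7* alone passed. It did so in abnormal fibers against young and against normal fibers, where 8.5% and 9.35% of all genes tested were called. This transporter releases zinc from the endoplasmic reticulum into the cytosol. It was listed at 34.1 to 40.7 TPM in young, 28.3 to 37.2 TPM in Fluo-4 normal and 50.9 to 56.8 TPM in Fluo-4 abnormal fibers. It rose in abnormal fibers by 0.78 against normal (SE 0.09, adjusted p = 0.00069) and by 0.54 against young (SE 0.09, adjusted p = 0.0039), and the abnormal samples overlapped neither group. The 4 abnormal samples thus stood above the other 8, whereas for *Mt2* the 8 samples of aged mice stood above the young. *Slc39a14*, an importer induced by inflammation, differed by 0.10 between abnormal and young fibers (adjusted p = 0.80). None of 7 zinc exporters tested passed in any comparison, with 1, 1 and 0 at an unadjusted p under 0.05 in abnormal against young, abnormal against normal and normal against young fibers (limma; 23.0%, 25.6% and 12.9% of all genes), and *Slc30a2*, a vesicular exporter, had the smallest p between the aged groups (0.72, adjusted p = 0.11).

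Of 14 genes of the glucocorticoid response, 3 rose in abnormal against young fibers and 2 in abnormal against normal fibers. Of all genes tested, 8.5% and 9.35% were called in these comparisons. In normal against young fibers 0 of the 14 passed, beside 1.15% of all genes tested. *Tsc22d3*, which encodes the glucocorticoid-induced leucine zipper GILZ, was listed at 163 to 189 TPM in young, 172 to 203 TPM in Fluo-4 normal and 201 to 251 TPM in Fluo-4 abnormal fibers. It rose in abnormal fibers by 0.38 against young (adjusted p = 0.015, limma) and by 0.34 against normal (adjusted p = 0.023). *Per1*, a clock gene, and *Pik3r1*, a regulatory subunit of PI3K, rose against young by 0.81 (adjusted p = 0.046) and 0.75 (adjusted p = 0.037), and *Nr3c1*, the glucocorticoid receptor, rose against normal by 0.46 (adjusted p = 0.049). *Fkbp5*, a chaperone of that receptor, was higher against young by 0.72 and did not pass (adjusted p = 0.069). The mean of *Pik3r1* was 1.73 TPM in young, 3.92 TPM in Fluo-4 normal and 3.49 TPM in Fluo-4 abnormal fibers, so it was not highest in the abnormal fibers.

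Of 11 genes of the NRF2 response to oxidants, 3 rose in abnormal against young fibers, where 8.5% of all genes tested were called. The other genes of the list did not pass. All 11 differences were above 0, with a median of 0.31 beside 0.07 over all genes tested. Of the 11, 3 reached an unadjusted p under 0.05 (limma), beside 23.0% of all genes tested. *Srxn1* had a mean of 11.8 ± 0.770 TPM in young, 21.6 ± 3.52 TPM in Fluo-4 normal and 29.6 ± 6.73 TPM in Fluo-4 abnormal fibers (SD, n = 4), and rose by 1.23 in abnormal (adjusted p = 0.00053) and by 0.81 in normal fibers (adjusted p = 0.026). Like *Mt2*, it did not overlap the young in either aged group (16.2% of all genes tested in abnormal and 7.98% in normal fibers). *Nqo1*, a quinone reductase, rose by 0.89 in abnormal fibers (adjusted p = 0.0023) and was higher by 0.60 in normal fibers (adjusted p = 0.062). *Gsr*, glutathione reductase, rose by 0.47 against young (adjusted p = 0.027), and *Gclm*, the modifier subunit of glutathione synthesis, rose by 0.62 in abnormal against normal fibers (adjusted p = 0.014). Unlike *Srxn1* and *Nqo1*, *Gclm* was lower in normal than in young fibers without overlap (means of 13.8 and 19.5 TPM, -0.47, adjusted p = 0.12), and its abnormal mean of 21.5 TPM differed from the young by 0.14 (adjusted p = 0.58).

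Fibers were isolated by enzyme digestion, and 20 immediate early and dissociation-response genes were therefore listed. In abnormal against young fibers their median difference was 0.62, beside 0.07 over all genes tested. Of the 20, 19 were above 0, 12 had an unadjusted p under 0.05 and 2 were called (limma). Of all genes tested, 23.0% reached that unadjusted p and 8.5% were called. In normal against young fibers the median of the list was 0.21, beside -0.02 over all genes tested, and 16 of 20 were above 0. There 4 of 20 had an unadjusted p under 0.05 and 0 were called (limma), beside 12.9% and 1.15% of all genes tested. *Fos* was listed at 487 to 691 TPM in young, 363 to 953 TPM in Fluo-4 normal and 721 to 928 TPM in Fluo-4 abnormal fibers. *Atf3* and *Egr1*, both transcription factors, rose in abnormal against young fibers by 1.00 (adjusted p = 0.035) and 0.98 (adjusted p = 0.044), and *Egr2* rose against normal by 1.25 (adjusted p = 0.046). The listed genes moved with *Mt2* in the comparison of abnormal with young fibers, and their part in the result was not tested.

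**Figure D4:**
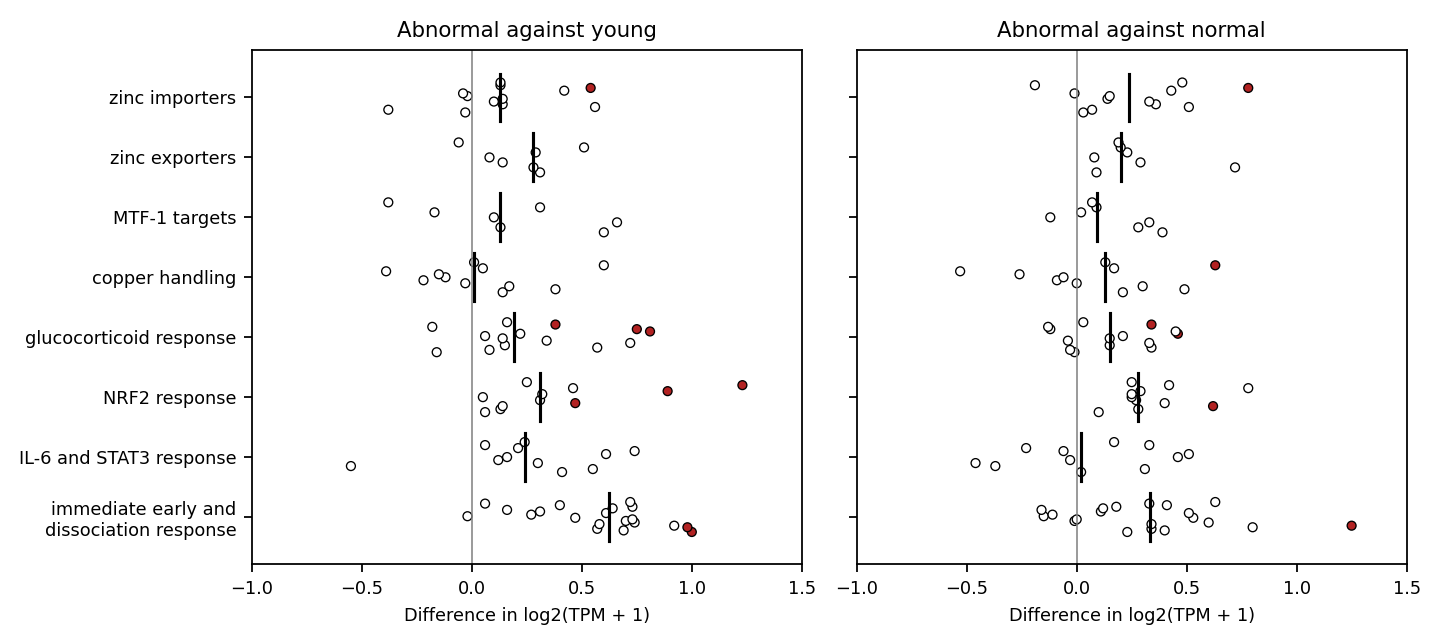
Difference in log2(TPM + 1) of each tested gene (points) in 8 lists, for abnormal against young fibers (left) and abnormal against normal fibers (right); filled points have an adjusted p under 0.05 over all genes tested and vertical lines mark the list medians. The immediate early and dissociation list had a median of 0.62 on the left and 0.33 on the right, and no MTF-1 target is filled on either side.

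Markers of other cell types were read as sums of TPM over each list. The summed level of 8 immune markers was 0.991 to 2.62 TPM in young, 5.76 to 21.1 TPM in Fluo-4 normal and 7.85 to 13.7 TPM in Fluo-4 abnormal fibers, so both aged groups lay above the young, as for *Mt2*. Most of this sum in the aged groups was *Lyz2*, a lysozyme of macrophages and neutrophils, which was listed at 0.269 to 1.04 TPM in young, 4.58 to 13.8 TPM in Fluo-4 normal and 6.69 to 10.5 TPM in Fluo-4 abnormal fibers. It was the 1 of 7 tested immune markers that rose, in abnormal against young and in normal against young fibers. Of all genes tested, 8.5% and 1.15% were called in these comparisons. All 7 tested immune markers had differences above 0 in abnormal against young fibers and 6 of 7 in normal against young fibers. An unadjusted p under 0.05 (limma) was reached by 1 and 3 of the 7, beside 23.0% and 12.9% of all genes tested. Of the defining macrophage markers, *Csf1r* had means of 0.00525, 0.190 and 0.0600 TPM and *C1qa* means of 0.0275, 0.299 and 0.0840 TPM in young, Fluo-4 normal and Fluo-4 abnormal fibers. The markers *Ptprc* and *Adgre1* were at 0 in every young sample and at most 0.262 and 0.011 TPM in the abnormal fibers. Of 6 Schwann cell markers, *Mbp* and *Sox10* rose in abnormal against young fibers, where 8.5% of all genes tested were called. In normal against young fibers 0 of the 6 were called, beside 1.15% of all genes tested. All 6 had differences above 0 in both comparisons with young fibers. Their summed level was 0.773 to 1.81 TPM in young, 1.41 to 7.01 TPM in Fluo-4 normal and 3.63 to 8.15 TPM in Fluo-4 abnormal fibers. The summed endothelial markers were 18.9 to 36.8 TPM in young, 41.0 to 124 TPM in Fluo-4 normal and 10.4 to 73.3 TPM in Fluo-4 abnormal fibers, and the summed fibroblast markers 38.7 to 81.4, 43.4 to 184 and 28.3 to 138 TPM, with 0 of 8 called in either list. The endothelial sums of normal and young fibers did not overlap. In that comparison 7 of 8 endothelial markers were above 0 and 3 of 8 had an unadjusted p under 0.05 (limma), beside 12.9% of all genes tested. Of the 8 fibroblast markers, 3 reached that p in abnormal against young fibers, beside 23.0% of all genes tested. Among these 3, *Dcn* was higher (1.05) and *Col1a1* and *Col3a1* were lower (-0.86 and -0.89). The summed erythroid markers were 33.1 to 121 TPM in young, 119 to 482 TPM in Fluo-4 normal and 44.4 to 236 TPM in Fluo-4 abnormal fibers, beside 47.4 to 259 TPM for *Mt2* over all samples. Their median difference was 1.13 in normal against young fibers, where 5 of 5 were above 0, and *Hbb-bs*, a beta-globin, did not overlap (means of 89.7 and 33.0 TPM, adjusted p = 0.28). Satellite cell, smooth muscle and pericyte, adipocyte and erythroid markers had 0 called in any comparison by limma, and of the myofiber markers *Myh4* rose in abnormal against normal fibers. At an unadjusted p under 0.05, the count in these 4 lists was at most 2 of 5, for erythroid markers in normal against young fibers. The part of these cells in the *Mt1* and *Mt2* levels was not tested.

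The libraries do not mark strand, and 2 genes overlap the members on the opposite strand, so reads of the shared stretches cannot be told apart. *Gm45774*, a long noncoding RNA, overlaps 1222 of the 1389 bp of the *Mt2* gene, introns included, and was listed at 0.528 to 2.48 TPM. Between the transcripts, the longest match covered 373 of the 748 bases of the *Mt2* transcript, at 100% identity. *1110065P20Rik*, a protein-coding gene, overlaps *Mtf1* over 761 bp and was listed at 30.6 to 44.8 TPM, well above *Mtf1*. No other gene matched a member transcript over 100 bases at 95% identity or more, and the longest match between *Mt1* and *Mt2* was 156 bases at 78.8% identity.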

How the data were processed

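The authors aligned the reads to GRCm39 (mm39) with DRAGEN 4.3 and deposited TPM, 1 table a sample. The gene annotation they counted on is not given in the sources used here, TPM gives no read depth, and no interval for counting error can be given. Of 55487 lines, those of the 114 symbols on several lines were summed. Protein-coding and mitochondrially-encoded genes with a mean of at least 0.02 TPM in 1 group or more were tested on log2(TPM + 1) with limma 3.58.1 (R 4.3.3; lmFit, eBayes with trend, 12 samples in 3 groups), with Benjamini-Hochberg adjustment, where the study used Student's test. The fit was tested on simulated data. Sample ratios were tested by exact permutation of 4 against 4 (70 arrangements). Genomic positions are from GENCODE, promoters from RefSeq, and transcript matches from BLAST 2.17.0.

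Members and lists (zinc importers and exporters, MTF-1 targets, copper handling, glucocorticoid, NRF2, IL-6 and STAT3, immediate early and dissociation response, paralogs, cell type markers) were chosen with earlier results of these data known. Genes were named by rule: the members, paralogs, 7 fixed genes, at most 3 called genes a list and comparison or else the smallest p between the aged groups, and the 5 genes most like *Mt1* and *Mt2*. Marker genes and opposite-strand neighbors were named after their values were seen.

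Same-numbered samples of the 2 aged groups correlated in their deviations from the group means (0.51, 0.42, 0.46 and 0.33 over 4468 genes), and their numbers were taken as pairs. Those of young with either aged group did not all exceed 0.1 and were not. The main limma fit and the main ratio test were unpaired, and the pairs entered only the replicate block and the values within numbers. Alternatives were scaling, pseudocount, filter, genes and samples fitted, replicate block, sample weights, *Myh4* share, GC content and length, and leaving out each sample.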

Additional observations from a re-analysis of the deposited data

Results flagged for a closer look

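Of 99 groups of 4 samples examined, over the named genes and the *Mt2* to *Mt1* ratio, 5 had 1 sample far from the other 3 by Dixon's test, and chance alone flags about 1 group in 20. The ratio of *Mt2* to *Mt1* was 0.416 in Fluo-4 abnormal sample 1 and 0.249 to 0.265 in the others. *Mt3* was listed at 10.7 TPM in Fluo-4 abnormal sample 4 and at 1.38 to 2.63 TPM in the others. *Slc39a14* was listed at 3.31 TPM and *Gsr* at 27.8 TPM in Fluo-4 abnormal sample 2, beside 2.10 to 2.25 TPM and 23.3 to 23.7 TPM. *Tsc22d3* was listed at 203 TPM in Fluo-4 normal sample 4, beside 172 to 175 TPM.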

How the results depend on the processing

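*Mt2* in abnormal against young fibers passed in all 24 alternatives. *Mt1* in this comparison passed with a pseudocount of 0.1 (0.64), a filter of 5 TPM (0.64), the GC and length trend removed (0.61) and the replicate block with it (0.61), and ranged from 0.52 to 0.83 with 1 sample left out. *Mt2* in normal against young fibers passed with a pseudocount of 0.1 (1.08), a filter of 5 TPM (1.07), the replicate block (1.07), the GC and length trend removed (1.05) and both (1.05), and ranged from 0.92 to 1.23 with 1 sample left out, passing in 1 of those fits. Without Young sample 4 neither passed (adjusted p = 0.18 and 0.16). *Mtf1* turned negative in abnormal against normal fibers with the GC and length trend removed, without and with the replicate block (-0.07 and -0.07), and in abnormal against young fibers with trimmed-mean factors (-0.08), the *Myh4* share (-0.05) and the GC and length trend, without and with the replicate block (-0.15 and -0.15). With 1 sample left out it ranged from -0.12 to 0.23 against young and, for normal against young, from -0.34 to 0.01. The cause was not tested.

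The *Mt2* to *Mt1* log2 ratio ranged, with 1 sample left out, from -0.08 (without Fluo-4 abnormal sample 1) to 0.19 between the aged groups, from 0.61 to 0.85 for abnormal against young and from 0.59 to 0.75 for normal against young. With 3 against 4 samples the smallest p is 0.057, so these fits could not pass.

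Listed genes called in abnormal against normal fibers were 2 with trimmed-mean factors, without mitochondrial genes or with only those 2 groups, 3 over all annotated genes, 10 with the 5 TPM filter or the replicate block, and 2 (without Fluo-4 normal sample 1) to 7 with 1 sample left out. Over all genes tested, 855 of 14402 were called with trimmed-mean factors, 1710 of 6348 with the filter and 1959 of 14428 with the block. Listed genes called in abnormal against young fibers were 5 over all annotated genes, 14 with the replicate block, 15 with the block and the GC and length trend, 19 with the *Myh4* share, and 3 (without Young sample 4) to 19 (without Fluo-4 normal sample 1) with 1 sample left out. Over all genes tested, 1651 of 14428 were called with the block, 1682 of 14066 with the block and the trend and 576 of 14428 without Young sample 4. In normal against young fibers the listed genes called were 3 with trimmed-mean factors or the GC and length trend, 2 without mitochondrial genes, with the smaller pseudocount, the filter or the replicate block, 4 with sample weights, 5 with the block and the trend, and 0 to 2 with 1 sample left out. Over all genes tested, 238 of 14402 were called with trimmed-mean factors, 358 of 14428 with sample weights and 502 of 14066 with the block and the trend. Of all 14428 genes tested, 1289 were called in abnormal against young fibers with the *Myh4* share and 1677 without Fluo-4 normal sample 1. There the listed share lay above that of all genes. With only the 2 aged groups fitted, 566 of 14428 were called, and the listed share lay below. The replicate block is a paired fit for the aged groups only, since young numbers were not taken as pairs, so the *Mt2* call it gave in normal against young fibers rests on a shared number alone. It changed no other call of *Mt1*, *Mt2* or *Mtf1*. Depth is unknown, which limits *Mtf1*, *Mt3* and the zinc transporters at a few TPM most.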

Other observations

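Copper-handling genes and genes of the IL-6 and STAT3 response were also read, since metallothioneins bind copper and are induced by IL-6 in other tissues. Of 11 copper-handling genes tested, 1 rose in abnormal against normal fibers, where 9.35% of all genes tested were called. This was *Slc31a2*, a copper transporter of endosomes, listed at 3.64 to 5.13 TPM in young, 3.82 to 4.60 TPM in Fluo-4 normal and 5.77 to 10.8 TPM in Fluo-4 abnormal fibers. It rose by 0.63 against normal (SE 0.18, adjusted p = 0.040, limma) and was higher by 0.60 against young (adjusted p = 0.055). Of 11 genes of the IL-6 and STAT3 response, 0 passed in any comparison, with 2, 1 and 1 at an unadjusted p under 0.05 in abnormal against young, abnormal against normal and normal against young fibers (limma), beside 23.0%, 25.6% and 12.9% of all genes tested. *Il6st*, the shared signaling receptor chain gp130, was listed at 28.5 to 35.9 TPM in young, 18.7 to 30.4 TPM in Fluo-4 normal and 31.0 to 40.9 TPM in Fluo-4 abnormal fibers, and differed by 0.46 between the aged groups (adjusted p = 0.062).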
